A study of Arabidopsis thaliana with 12 samples.

Results

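Seedlings of the Arabidopsis thaliana line atbzip16 grown in red light were compared with seedlings of the same line grown in the dark, on 6 of the 12 arrays of a series that also holds the wild type. The 3 red-light and the 3 dark arrays were taken by their titles, which give genotype, light condition and biological replicate number. The free-text notes of the 3 dark arrays name the red-light condition instead, and were not used. All seedlings were 4 days old, had the Landsberg erecta (Ler) background, and were sampled as aerial parts. The samples are labelled as total RNA, while the extraction protocol also covers RNA from polysomes, so which of them was hybridised rests on the sample label alone. The light-grown seedlings received 0.5 µmol m-2 s-1 of red light in a long-day cycle, and the wild-type Ler arrays, 3 per light condition, came from the same 2 treatments. The labels give the mutant genotype as atbzip16 and name no allele, and the annotation used here links no probe set to bZIP16, so its level is not given. The labels do not say whether replicates came from separate cultures, so a p-value measures only the spread between these samples.

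A seedling that germinates in the dark follows an etiolated course, with a long hypocotyl, closed cotyledons and plastids without chlorophyll. Red light is absorbed by phytochromes, which in their active form remove growth-promoting transcription factors and so slow the hypocotyl, open the cotyledons and start the building of chloroplasts. The factor bZIP16 belongs to the G group of basic leucine zipper proteins, which bind G-box sequences found in many light-regulated promoters. Each value below is the signal of one probe set, a linear brightness that the authors had scaled to a common mean on every array, so that signals of different probe sets cannot be set against each other as levels.

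Of 15922 probe sets with sufficient signal, 2224 (14%) passed the test at an adjusted p under 0.05 (limma, Benjamini-Hochberg adjustment, here and throughout). Higher in red light were 1129 (7.09%), and lower were 1095 (6.88%). With replicate number as a block, 4221 (26.5%) passed, of which 2091 (13.1%) were higher and 2130 (13.4%) lower. Among the 2224, the 3 red-light arrays did not overlap the 3 dark arrays in 2211, and 2219 changed the same way in all 3 same-numbered pairs. Over all tested probe sets, red light lay wholly above dark in 16.3% and wholly below in 16.7%. Median signal per array ran from 160.8 to 179.1. Replicate 1 stood apart in both conditions: its median absolute log2 difference from the other replicates was 0.32 to 0.33, against 0.16 in the dark and 0.19 in red light between replicates 2 and 3. With every replicate 1 array of the series left out, 4657 probe sets passed, 2151 of the 2224 among them. Leaving out red-light replicate 2 or 3 of atbzip16 reduced the calls to 1372 and 1414. The split between higher and lower calls followed the scaling: 50.8% were higher on the signals as deposited, 65.9% after each array was centred on its median and 55.5% after quantile normalization, and the median over all tested probe sets was -0.02 on the log2 scale as deposited and 0.09 after centring. Falls reached further than rises. At least 8-fold changes numbered 20 higher and 152 lower, and at least 32-fold changes 2 higher and 70 lower.

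**Figure D1:**
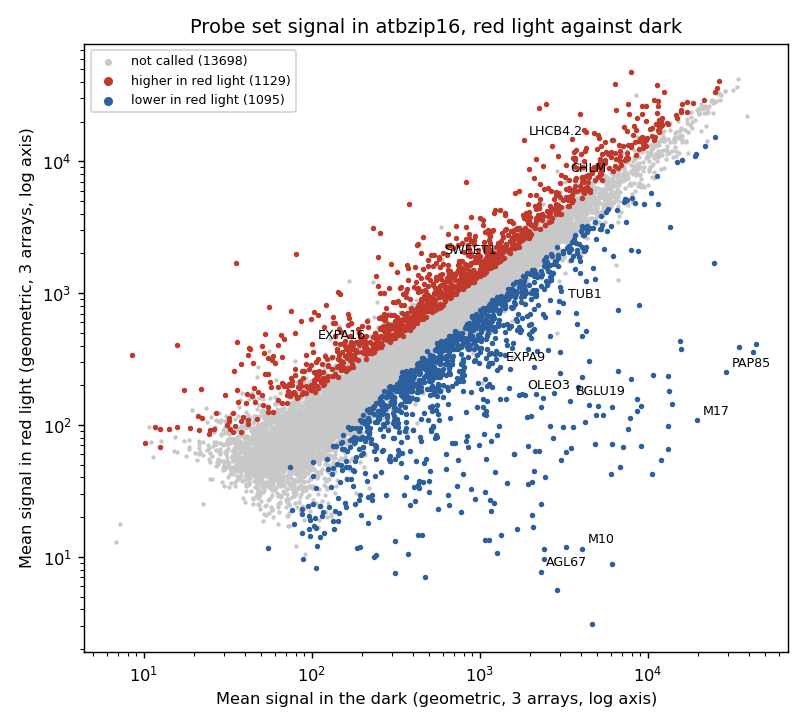
Geometric mean signal of each of 15922 probe sets in atbzip16, in the dark (x axis) and in red light (y axis), 3 arrays each, both axes logarithmic, with 1129 called higher in red, 1095 called lower in blue and the rest in grey. The points far below the main cloud outnumber those far above it: 70 called probe sets were at least 32-fold lower and 2 at least 32-fold higher.

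Most tested nuclear genes of the photosynthetic machinery rose. Of 8 nuclear genes for light harvesting, the photosystems and the plastid ATP synthase that were tested, 7 rose and 0 fell, beside 7.09% of all probe sets, with a median log2 fold change of 1.41 over the 8 against -0.02 over all tested. In the bulk tissue measured here, a change in the number of cells of a type cannot be told apart from a change in RNA per cell. LHCB4.2, a minor antenna protein of photosystem II, gave signals of 1275, 2077 and 2291 in the dark and 9389, 17559.5 and 18221 in red light. All 3 red-light arrays were above all 3 dark arrays, and the gene rose by 2.98 ± 0.26 on the log2 scale (adjusted p = 9.66e-06). The errors here and below are standard errors for 3 arrays per condition. They come from the fit over all 12 arrays, in which atbzip16 and Ler share 1 estimate of the spread per probe set. LHCB4.1, a close relative of LHCB4.2, had 11319.7, 11810.5 and 11440.2 in the dark and 23216, 31928 and 32398 in red light and rose by 1.32 ± 0.14 (adjusted p = 5.62e-05). The third member, LHCB4.3, had 477, 365 and 367 in the dark and 238, 319.5 and 274 in red light, with red light wholly below dark, and its log2 fold change of -0.54 ± 0.21 did not pass (adjusted p = 0.12). PSBY and PSBW, small subunits of photosystem II, rose by 1.49 ± 0.15 and 1.23 ± 0.38. PSAN and PSAE-1, peripheral subunits of photosystem I, rose by 1.71 ± 0.21 and 1.96 ± 0.47. ATPC1, the gamma subunit of the plastid ATP synthase, rose by 1.14 ± 0.20. The call of PSAE-1 ended when dark replicate 1 or red-light replicate 2 or 3 was left out, and that of PSBW when dark replicate 1, 2 or 3 or red-light replicate 2 or 3 was left out or after quantile normalization.

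Chlorophyll synthesis and carbon fixation gave fewer calls, and the 1 photorespiration gene tested rose. Of 11 tested genes of chlorophyll synthesis, 2 rose and 0 fell, beside 7.09% higher and 6.88% lower over all probe sets, with a median log2 fold change of 0.27. With the block 3 rose and 0 fell, beside 13.1% and 13.4%. CHLM, the magnesium protoporphyrin IX methyltransferase, had 2862, 3326 and 3476 in the dark and 5804, 8190.1 and 9106 in red light and rose by 1.24 ± 0.17 (adjusted p = 0.000457). AT1G74470, annotated as a geranylgeranyl reductase, the enzyme that supplies the phytyl tail of chlorophyll, rose by 0.80 ± 0.19 (adjusted p = 0.0152), a call that ended after quantile normalization and when dark replicate 1 or red-light replicate 2 or 3 was left out. The other 9 did not pass without the block. PORB, a protochlorophyllide oxidoreductase that depends on light for its reaction, was -0.27 ± 0.41 on the log2 scale (adjusted p = 0.732), and CHLI2, a subunit of magnesium chelatase, 0.27 ± 0.39 (adjusted p = 0.713).

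None of 3 Calvin cycle genes passed without the block and all 3 rose with it, beside 13.1% of all probe sets higher with the block. RCA, Rubisco activase, had 5401, 9062 and 8671 in the dark and 7741, 14043 and 15786 in red light, a log2 fold change of 0.67 ± 0.31, and adjusted p-values of 0.185 and, with the replicate block, 9.11e-05. PRK, phosphoribulokinase, was 0.76 ± 0.41 (adjusted p = 0.272, with the block 0.000976), and SBPASE, sedoheptulose bisphosphatase, 0.40 ± 0.48 (adjusted p = 0.645, with the block 0.0121). In each the red-light array was above the same-numbered dark array, while the groups as a whole overlapped. HPR, the peroxisomal hydroxypyruvate reductase of photorespiration, had 4184, 5465 and 4800.1 in the dark and 14184, 19216 and 15936 in red light, with no overlap, and rose by 1.77 ± 0.14 (adjusted p = 4.8e-06).

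Among genes encoded in the plastid genome, 16 of 67 rose and 0 fell, beside 7.09% higher and 6.88% lower over all probe sets, with a median log2 fold change of 0.35. With the block, 32 rose and 5 fell, beside 13.1% and 13.4%, and without each of the 6 arrays in turn 9 to 22 rose. Of the 16, 15 belong to the photosynthetic complexes: 15 of 41 tested genes for photosystem I and II, cytochrome b6f, ATP synthase and the NDH complex rose, 38 of the 41 were above 0, and their median was 0.47. With the block, 27 of the 41 rose and 0 fell. Of 18 genes for ribosomal proteins and RNA polymerase, 0 rose and 0 fell without the block, and 0 rose and 4 fell with it. Among these 18, 5 were above 0, and their median was -0.10. This grouping was made after the values were seen. psbA, the D1 reaction centre protein of photosystem II, had 1458, 1895 and 1401 in the dark and 4797, 2848 and 2939.5 in red light and rose by 1.12 ± 0.23 (adjusted p = 0.00555). petD, subunit IV of cytochrome b6f, had 105, 148 and 127 in the dark and 358, 247 and 250.2 in red light and rose by 1.16 ± 0.23 (adjusted p = 0.00515). The small photosystem II subunits psbJ and psbL rose by 0.92 ± 0.19 and 0.73 ± 0.13. rbcL, the large subunit of Rubisco, had 2374, 3178 and 3496 in the dark and 2424, 1228 and 1361 in red light, with red-light replicate 1 inside the dark range, and its log2 fold change of -0.90 ± 0.28 passed with the block and not without it (adjusted p = 0.0181 and 0.0525). Of these 16 calls, 8 ended after quantile normalization: atpA, atpE, atpH, cemA, ndhD, ndhI, petA and psaB. A list of nuclear genes matched by symbol held CRR21, CRR28, CRR41, CRR42, HCF101, PPR336 and PPR596, not all of them plastid RNA processing genes. None of these 7 passed without the block. CRR21, an RNA editing factor of the NDH complex, was -1.17 ± 0.45 (adjusted p = 0.111, with the block 0.0317).

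**Figure D2:**
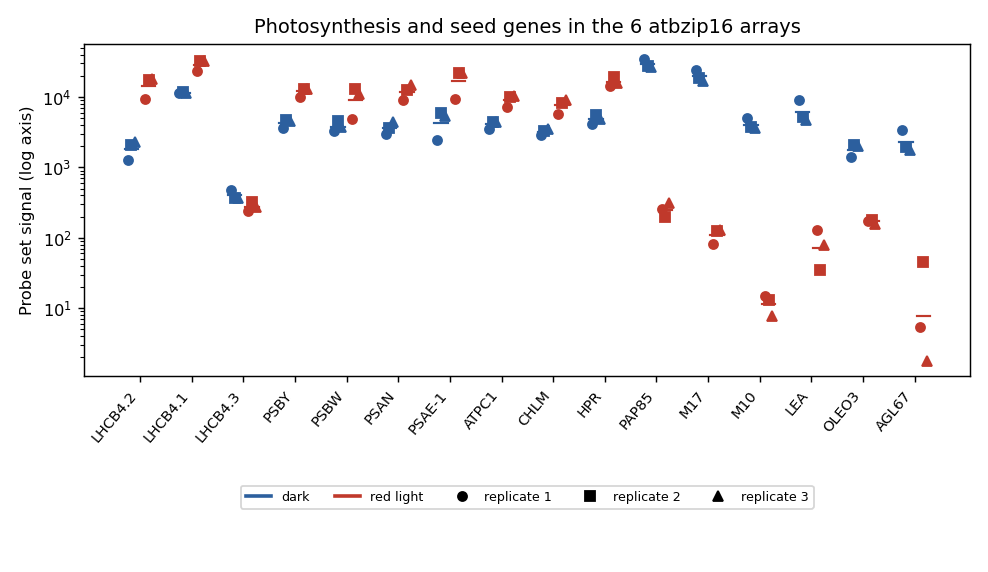
Signal (log axis) of 16 probe sets in the 3 dark (blue) and 3 red-light (red) arrays of atbzip16, with a symbol for each replicate and a bar for the geometric mean. The photosynthesis genes from LHCB4.2 to HPR lie higher in red light except LHCB4.3, and the seed genes from PAP85 to AGL67 lie lower without overlap.

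The largest rises among named genes were mostly of loci for which the gene table gives no name. AT4G28780 had 6.6, 71.1 and 8.4 in the dark and 208, 489 and 655 in red light, and rose by 4.68 ± 0.83 (adjusted p = 0.00245). AT5G48490 had 32.5, 117 and 138 in the dark and 630.4, 3161 and 3932 in red light, and rose by 4.62 ± 0.85 (adjusted p = 0.00293). Both were low in every dark array, and the 3 values within a condition spread widely. With a pseudocount of 16 their log2 fold changes were 3.54 and 4.33. AT2G34620 rose by 3.82 ± 0.87, a call that ended when red-light replicate 2 or 3 was left out. AT1G18810, AT4G19530 and AT1G70870 rose by 3.58 ± 0.31, 3.18 ± 0.63 and 3.05 ± 0.92, the last of these with a call that ended when dark replicate 1 or red-light replicate 2 or 3 was left out. AT2G22510, AT1G04660, AT4G38080, AT5G47980, AT1G22690, AT3G19850, AT2G43550 and AT4G18740 rose by 2.72 to 3.03 on the log2 scale, AT2G43550 with a call that ended when red-light replicate 2 or 3 was left out. With a pseudocount of 16, AT1G70870 and AT2G43550 were 1.80 and 1.74. LHCB4.2 was the only one of these 15 that belonged to one of the lists. The rises with the smallest adjusted p were those of AT1G13930 (2.16 ± 0.12, adjusted p = 2.55e-07) and AT3G47250 (2.47 ± 0.15, adjusted p = 5.89e-07), and AT3G18050 rose by 1.48 ± 0.11. CCL, named CCR-like after a clock-regulated gene family, had 4373, 4063 and 4070.5 in the dark and 13404, 19002 and 19793 in red light and rose by 2.04 ± 0.15 (adjusted p = 3.22e-06). SWEET1, a glucose transporter of the SWEET family, had 440.2, 669 and 623 in the dark and 1671, 1939.5 and 1813 in red light and rose by 1.67 ± 0.16 (adjusted p = 2.36e-05).

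Some of the deepest falls were of seed maturation transcripts. They encode storage proteins, oil body proteins and late embryogenesis abundant (LEA) proteins, which protect the drying embryo, and they are normally degraded or switched off once a seed germinates. Of 11 tested genes, 10 fell and 0 rose, beside 6.88% lower over all probe sets, with a median log2 fold change of -3.45. PAP85, a vicilin-like storage protein, had 34501, 27132 and 26608 in the dark and 255, 197 and 312 in red light, and fell by 6.87 ± 0.25 (adjusted p = 1.95e-08). Every red-light array lay far below every dark array. M17, a transcript of late embryos, had 24319, 18474 and 16700.2 in the dark and 80.9, 124 and 129.5 in red light and fell by 7.49 ± 1.05 (adjusted p = 0.000476). M10, from the same group of embryo transcripts, had 5014, 3688 and 3601 in the dark and 14.9, 13.2 and 7.8 in red light and fell by 8.46 ± 0.62 (adjusted p = 2.39e-06). The dehydrin LEA had 9179.5, 5208 and 4754 in the dark and 131, 35 and 79.9 in red light and fell by 6.41 ± 0.47. OLEO3, an oleosin that coats oil bodies, kept more of its signal, with 1390.0, 2046 and 1981 in the dark and 176, 181 and 155 in red light, and fell by 3.38 ± 0.27 (adjusted p = 5.43e-06). AGL67, a MADS-box factor of the embryo, had 3446, 1977 and 1780.5 in the dark and 5.5, 45.8 and 1.8 in red light; the 3 red-light values spread widely at this low signal, and the gene fell by 8.22 ± 0.99 (adjusted p = 0.000155). Red-light signals of M10 and, on 2 of 3 arrays, AGL67 were under 41.6, the mean signal below which probe sets were left out, and with a pseudocount of 16 their log2 fold changes were -7.19 and -6.33. LEA18, LEA4-5, AtLEA4-1 and the LEA-type gene AT2G46140 fell, with log2 fold changes of -3.45 ± 0.54, -3.45 ± 0.36, -3.15 ± 0.57 and -0.96 ± 0.15. AT2G44060, also of the LEA type, did not pass without the block (log2 fold change -0.34 ± 0.20, adjusted p = 0.3, with the block 0.0212). Without each of the 6 arrays in turn, 10 of the 11 fell. The shares of ungerminated seeds or of seed coats in the 2 sets of samples are not given in the labels, and their part in these falls was not tested.

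Most of the other largest falls were of loci for which the gene table gives no name, with ATOEP16-2 as an exception. The lists were matched by symbol and synonym and can miss such loci. Whether some of them also belong to seed maturation was not tested. Large falls of the named genes LCR67 and PDF2.1 are given below. AT1G14930 and AT1G14950 fell, with log2 fold changes of -8.09 ± 1.07 and -7.63 ± 0.33, and so did AT1G54860 and AT1G54870, with -7.96 ± 0.95 and -7.08 ± 0.36. AT1G54870 had 18253, 11391 and 11165 in the dark and 112, 72.6 and 115 in red light (adjusted p = 9.91e-08). AT5G45690, AT3G01570, AT1G27461, AT4G31830, AT3G05260 and AT1G16850 fell, with log2 fold changes of -7.13 ± 0.90, -7.03 ± 0.56, -6.95 ± 0.74, -6.90 ± 0.42, -6.70 ± 0.38 and -6.42 ± 0.80. Where red-light signals were lowest, the size depended on the pseudocount: with 16 added, AT1G14930, AT1G54860, AT1G27461, AT4G31830 and AT1G16850 were -6.45, -6.26, -5.88, -5.59 and -5.10. ATOEP16-2, a protein of the plastid outer envelope, had 2434, 1887 and 1826 in the dark and 10.5, 28.8 and 29.1 in red light and fell by 6.62 ± 0.34 (adjusted p = 9.91e-08), and with a pseudocount of 16 its log2 fold change was -5.76. AT2G21820 fell by 5.16 ± 0.27, among the 10 smallest p-values of the falls. Some of the falling genes are neighbours on a chromosome. Of 8584 measured genes, 6.12% were lower and 6.4% higher. Among 2962 pairs of adjacent measured genes, both members were lower in 16 (0.54%), both higher in 25 (0.844%) and opposite in 26, and whether these shares exceed those of unrelated pairs was not tested. The 16 included the run AT1G14930, AT1G14940 and AT1G14950, the pair AT1G54860 and AT1G54870, the pair M17 and M10, and the pair UGT73B5 and UGT73B4. Neighbours of similar sequence can share hybridisation to a probe set, which was not tested.

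Of 3 tested genes for the breakdown of seed oil, 0 passed without the block. ICL, isocitrate lyase of the glyoxylate cycle, had 30141, 19797 and 19022 in the dark and 16084, 14187 and 12550.5 in red light; its log2 fold change was -0.66 ± 0.28, with adjusted p = 0.148, and 0.00113 with the block. SDP1, the main lipase of oil bodies, was 0.41 ± 0.15 (adjusted p = 0.105, with the block 0.0355).

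Of 28 tested hormone genes, 3 rose and 4 fell (25%, beside 14% over all probe sets). With the block 4 rose and 7 fell, beside 13.1% higher and 13.4% lower over all probe sets. Of 10 auxin genes, 1 rose and 2 fell (with the block 1 and 4), beside 7.09% higher and 6.88% lower over all probe sets without the block. The median log2 fold change of the 10 was -0.29. IAA18, an Aux/IAA repressor of auxin responses, had 706, 542 and 599 in the dark and 1199.9, 1208 and 1216 in red light, and rose by 0.98 ± 0.14 (adjusted p = 0.00066). GH3.3 and WES1 (GH3.5), enzymes that conjugate auxin to amino acids, fell. GH3.3 had 1011, 987 and 923 in the dark and 397, 386 and 678 in red light and fell by 1.05 ± 0.28 (adjusted p = 0.0241), a call that ended when dark replicate 1, 2 or 3 or red-light replicate 1 or 2 was left out. WES1 fell by 0.59 ± 0.12, from a geometric mean of 3298 to 2186, a call that ended after median centring. The auxin synthesis gene YUC2 and the shade-induced repressor IAA29 had log2 fold changes of -0.29 ± 0.28 and -0.29 ± 0.22, which did not pass (adjusted p = 0.553 and 0.444).

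Of 6 gibberellin signalling genes, 2 rose and 1 fell, beside 7.09% higher and 6.88% lower over all probe sets. With the block 13.1% of all probe sets were higher and 13.4% lower. GID1B, one of 3 gibberellin receptors, had 288, 258 and 201 in the dark and 133, 93.2 and 120.4 in red light and fell by 1.11 ± 0.22 (adjusted p = 0.00452). The other receptors, GID1A and GID1C, were -0.18 ± 0.19 and 0.17 ± 0.17, and did not pass (adjusted p = 0.61 and 0.573). SLY1, the F-box protein that marks DELLA repressors for breakdown, had 614, 517 and 468 in the dark and 727, 857 and 933 in red light and rose by 0.66 ± 0.17 (adjusted p = 0.0194), and its relative SLY2 rose by 1.18 ± 0.35 (adjusted p = 0.0407). The call of SLY1 ended when dark replicate 2 or 3 or red-light replicate 2 or 3 was left out. The call of SLY2 ended without any one of the 6 arrays, and 0 or 1 of the 6 genes rose in those fits. BIM1, a basic helix-loop-helix (bHLH) partner of a brassinosteroid response factor, had 1073, 1199 and 1066 in the dark and 497, 454 and 541 in red light and fell by 1.16 ± 0.13 (adjusted p = 6.49e-05), the 1 call among 3 brassinosteroid genes (with the block 1 rose and 1 fell). Of 6 genes of abscisic acid or cold response, 0 passed without the block; RD2 was -0.48 ± 0.19 (adjusted p = 0.116, with the block 0.00224). Of 3 ethylene and jasmonate genes, 0 passed; EIN3, the main ethylene response factor, was -0.10 ± 0.22 (adjusted p = 0.825).

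Genes for wall loosening mostly fell where they passed. Among 26 expansin, xyloglucan endotransglucosylase (XTH) and cellulose synthase-like genes, 1 rose and 6 fell, beside 7.09% higher and 6.88% lower over all probe sets, with a median log2 fold change of -0.30. With the block 2 rose and 8 fell, beside 13.1% and 13.4%. EXPA9, an alpha-expansin, had 1027, 1534 and 1465 in the dark and 237, 276 and 326 in red light and fell by 2.25 ± 0.19 (adjusted p = 7.41e-06). EXPA4 had 2717, 1663 and 1522 in the dark and 739, 620.4 and 650.1 in red light and fell by 1.51 ± 0.20. XTH19 and XTH33, enzymes that cut and rejoin xyloglucan, fell, with log2 fold changes of -1.77 ± 0.36 and -1.59 ± 0.30, and with dark signals of 351, 613 and 599 and red-light signals of 205, 133 and 174 for XTH33. CSLC04, a synthase of the xyloglucan backbone, and EXLA2, an expansin-like protein, fell, with log2 fold changes of -1.05 ± 0.22 and -1.08 ± 0.32, the latter with a call that ended when dark replicate 1, 2 or 3 or red-light replicate 1 or 2 was left out. EXPA16 went the other way, with 101, 121 and 83.5 in the dark and 352, 369 and 523 in red light, and rose by 2.02 ± 0.20 (adjusted p = 3.59e-05). PMEPCRF, a pectin methylesterase, rose by 1.19 ± 0.15 (adjusted p = 0.000211), the 1 call among 5 genes of wall proteins and pectin.

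Of 8 tubulin and actin genes, 1 rose and 1 fell, beside 7.09% and 6.88% over all probe sets. With the block 1 rose and 3 fell, beside 13.1% and 13.4%. TUB1, a beta-tubulin, had 2000.2, 4084 and 3707 in the dark and 588, 1039.8 and 953 in red light, with each replicate pair down and no overlap, and fell by 1.90 ± 0.35 (adjusted p = 0.00285). TUA1, an alpha-tubulin, had 1538, 1343 and 1247 in the dark and 2898, 1967 and 1931 in red light and rose by 0.70 ± 0.19 (adjusted p = 0.0292), a call that ended when dark replicate 2 or 3 or red-light replicate 1 was left out. Among 8 cell cycle and histone genes, 1 rose and 1 fell, beside 7.09% and 6.88% over all probe sets. HTB2, a histone H2B, fell by 0.82 ± 0.16 (adjusted p = 0.00403). HON4, a linker-histone-like protein, rose by 0.59 ± 0.17 (adjusted p = 0.0381), a call that ended when dark replicate 1, 2 or 3 or red-light replicate 2 or 3 was left out.

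**Figure D3:**
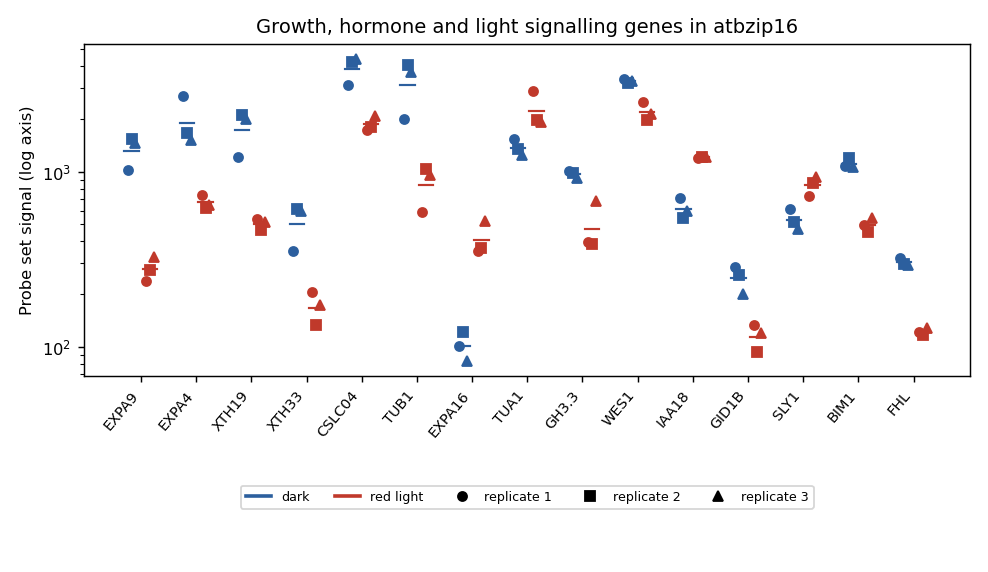
Signal (log axis) of 15 probe sets for wall, tubulin, hormone and light signalling genes in the 3 dark (blue) and 3 red-light (red) arrays of atbzip16, with a symbol for each replicate and a bar for the geometric mean. All groups shown are separate, with EXPA16, TUA1, IAA18 and SLY1 higher in red light and the other 11 lower.

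Of the light signalling genes looked for, FHL and HYH had named probe sets. FHL, which carries phytochrome A into the nucleus, had 319.8, 299 and 294 in the dark and 122, 116 and 129 in red light and fell by 1.32 ± 0.21 (adjusted p = 0.00103). HYH, a bZIP factor related to HY5, the activator of light-induced genes, had 92.8, 117 and 90.4 in the dark and 31.7, 42.4 and 29.2 in red light, with red light wholly below dark, and a log2 fold change of -1.55 ± 0.87 that did not pass (adjusted p = 0.283, with the block 0.148). This error takes in the spread of the Ler arrays too. Among 15 bZIP factors, HYH included, 2 fell and 0 rose, beside 6.88% lower and 7.09% higher over all probe sets. EEL, a bZIP factor of the embryo that acts on LEA genes, had 1276, 985 and 915 in the dark and 139.6, 166 and 112 in red light and fell by 2.93 ± 0.33 (adjusted p = 9.87e-05). bZIP44 had 563, 552 and 568 in the dark and 287, 246 and 255 in red light and fell by 1.10 ± 0.15 (adjusted p = 0.000473). With the block, 4 of the 15 rose and 4 fell, beside 13.1% and 13.4% over all probe sets.

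BIM1 was the 1 call among 14 bHLH factors without the block, and with it 3 rose and 2 fell. Over all probe sets, 7.09% were higher and 6.88% lower, and with the block 13.1% and 13.4%. Of 5 WRKY factors, WRKY6 fell by 0.76 ± 0.23 (adjusted p = 0.0476), a call that ended without any one of the 6 arrays. GI, the clock protein GIGANTEA, was higher in red light without overlap, with 1449, 1047 and 929 in the dark and 1899.8, 1569.9 and 1555 in red light, and passed with the block only (log2 fold change 0.57 ± 0.23, adjusted p = 0.123, with the block 0.00119). The single ERF/AP2 factor tested, tny, likewise passed with the block only (log2 fold change 0.85 ± 0.32, adjusted p = 0.107, with the block 0.0364). None of 2 MYB, 1 NAC and 3 homeobox factors passed without the block, and with it NAC014 (-0.59 ± 0.22, adjusted p = 0.00603) and HAT2 (-0.46 ± 0.17, adjusted p = 0.0135) fell.

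Of 33 UGT glycosyltransferases, which attach sugars to hormones and other small molecules, 2 rose and 7 fell, beside 7.09% higher and 6.88% lower over all probe sets, with a median log2 fold change of 0.02, and 4 to 6 fell without each of the 6 arrays in turn. UGT88A1 had 818, 961 and 884 in the dark and 1873, 3003 and 2767 in red light and rose by 1.49 ± 0.20 (adjusted p = 0.000304). UGT76E11 and UGT87A2 fell, with log2 fold changes of -1.99 ± 0.31 and -1.21 ± 0.22, with signals of 244, 157 and 149 in the dark and 51.8, 44.8 and 39.3 in red light for the first. UGT73B5 and UGT73B4 fell, with log2 fold changes of -2.27 ± 0.52 and -1.89 ± 0.51. These neighbours are close relatives, and their calls ended when dark replicate 3 or red-light replicate 2 was left out for the first and dark replicate 2 or 3 for the second. UGT76E2 fell by 0.80 ± 0.17. Of 11 beta-glucosidases, 2 rose and 5 fell, beside 7.09% higher and 6.88% lower over all probe sets, and 3 to 5 fell without each of the 6 arrays in turn. BGLU19 had 2973, 3344 and 4169.9 in the dark and 120.1, 158 and 186 in red light and fell by 4.50 ± 0.52 (adjusted p = 0.000108), the deepest fall of the family. BGLU44 fell by 0.78 ± 0.15. BGLU45 and BGLU46, adjacent genes for enzymes that release lignin precursors from their glucosides, rose by 1.16 ± 0.20 and 0.86 ± 0.14. Glutathione transferases gave 0 calls among 11 without the block, beside 14% of all probe sets. With the block 2 rose and 2 fell, beside 13.1% and 13.4%. GSTU16 had the largest difference, 2.22 ± 0.71 (adjusted p = 0.0572, with the block 0.028), and 1.54 with a pseudocount of 16. Cytochrome P450 genes gave 0 calls among 10.

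Of 11 sugar and starch genes, 2 rose and 1 fell, beside 7.09% higher and 6.88% lower over all probe sets. With the block 2 rose and 2 fell, beside 13.1% and 13.4%. Beside SWEET1, SBE2.2, a starch branching enzyme, rose by 0.77 ± 0.19 (adjusted p = 0.0177), a call that ended when dark replicate 1 or 2 or red-light replicate 3 was left out, and SWEET3, a further sugar transporter, fell by 1.28 ± 0.20 (adjusted p = 0.00114). Of 8 aldehyde dehydrogenases, 2 rose and 1 fell, beside 7.09% and 6.88% over all probe sets. With the block 2 rose and 2 fell, beside 13.1% and 13.4%. ALDH11A3, a cytosolic glyceraldehyde phosphate dehydrogenase, and ALDH6B2, of valine breakdown, rose by 0.80 ± 0.13 and 0.52 ± 0.11, and ALDH3F1 fell by 0.60 ± 0.16. The call of ALDH6B2 ended after quantile normalization, and that of ALDH3F1 after median centring and when dark replicate 1 or 3 or red-light replicate 1, 2 or 3 was left out. AT3G21670 was the 1 call among 12 nitrogen and sulphur genes, beside 14% of all probe sets. It fell by 1.01 ± 0.26 (adjusted p = 0.0195), and this call ended when dark replicate 1 or 2 or red-light replicate 1 or 2 was left out.

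GRXC1, a glutaredoxin, had 2441, 2727 and 2637 in the dark and 523, 549 and 377 in red light and fell by 2.45 ± 0.17 (adjusted p = 1.47e-06). Of 20 redox genes, 1 rose and 3 fell, beside 7.09% higher and 6.88% lower over all probe sets. With the block 3 rose and 7 fell, beside 13.1% and 13.4%. ATHM2, a plastid thioredoxin of the m type, rose by 0.44 ± 0.12, while TY1, a plastid thioredoxin of the y type, and CCS, the copper chaperone of superoxide dismutase, fell, with log2 fold changes of -0.64 ± 0.18 and -0.58 ± 0.13. The calls of TY1 and CCS ended after median centring; that of TY1 also ended without any one of the 6 arrays, and that of ATHM2 when dark replicate 1, 2 or 3 or red-light replicate 2 or 3 was left out. Of 13 genes matched by symbol to stress and defence, 3 fell and 0 rose, beside 6.88% lower and 7.09% higher over all probe sets. With the block 5 fell and 2 rose, beside 13.4% and 13.1%. The 13 include PDF1A and PDF1B, peptide deformylases that share only letters with the defensins. LCR67 (PDF1.1), a plant defensin, had 13396, 17587 and 16001 in the dark and 148, 683 and 806 in red light and fell by 5.17 ± 0.50 (adjusted p = 2.4e-05). PDF2.1, a further defensin, had 1155, 2622 and 2371 in the dark and 106, 32.7 and 96.1 in red light and fell by 4.80 ± 0.50 (adjusted p = 5e-05). STZ, a zinc finger repressor of stress responses, had 322, 191 and 214 in the dark and 21.8, 76.2 and 41.9 in red light and fell by 2.52 ± 0.42 (adjusted p = 0.00159). ATHSP22.0, a small heat shock protein, fell by 2.36 ± 0.63 (adjusted p = 0.0255), 1 of 4 heat shock genes (2 with the block), with a call that ended when dark replicate 1, 2 or 3 or red-light replicate 2 or 3 was left out.

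Of 24 proteasome and autophagy genes, 3 rose and 1 fell, beside 7.09% and 6.88% over all probe sets. With the block 5 rose and 1 fell, beside 13.1% and 13.4%. ATG8B and ATG8E, ubiquitin-like proteins of the autophagosome membrane, had 1241, 1668 and 1584 in the dark and 2952, 4485 and 3261 in red light for the first and 2864, 3559 and 3444 in the dark and 4405, 7851 and 6915 in red light for the second. They rose by 1.24 ± 0.18 and 0.92 ± 0.18 (adjusted p = 0.000573 and 0.00503). PEX4, a ubiquitin-conjugating enzyme of the peroxisome, rose by 0.51 ± 0.14, and the ubiquitin-conjugating enzyme UBC29 fell by 0.68 ± 0.18. The call of PEX4 ended when dark replicate 2 or 3 or red-light replicate 1, 2 or 3 was left out, and that of UBC29 when dark replicate 1 or 2 or red-light replicate 2 or 3 was left out or after median centring.

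**Figure D4:**
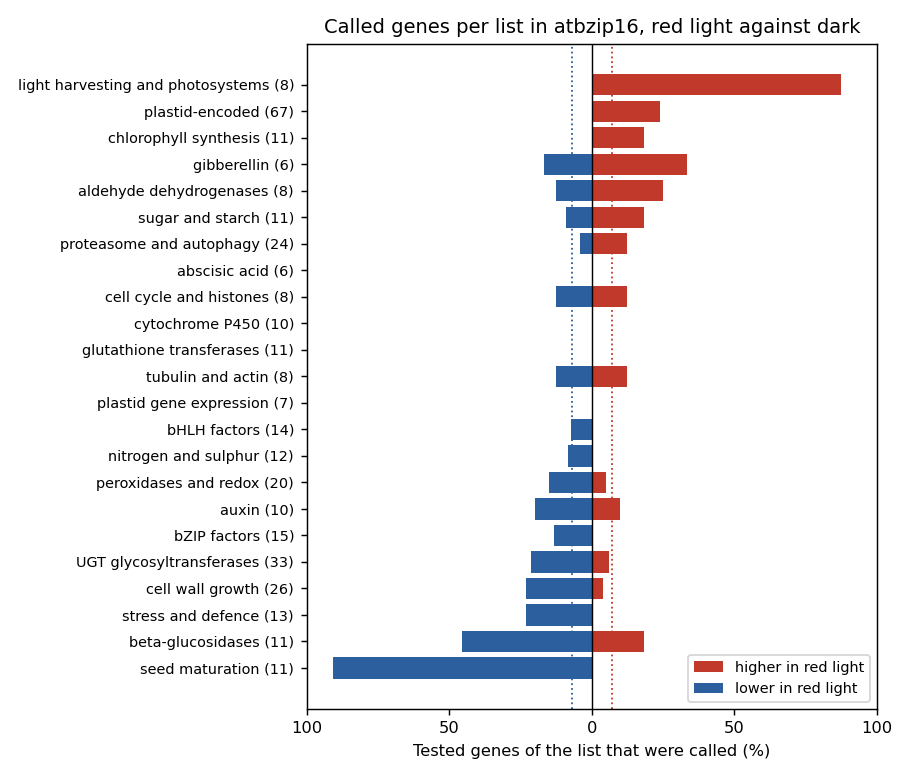
Percent of the tested genes of each list that were called higher (red, to the right) or lower (blue, to the left) in red light in atbzip16, for the lists with 6 or more tested genes (number in brackets), with dotted lines at the percent called over all probe sets, 7.09% higher and 6.88% lower. Among these lists, light harvesting and photosystems has the longest red bar (7 of 8 genes) and seed maturation the longest blue bar (10 of 11).

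The marker genes of other tissues were checked against the label of aerial parts. Over all probe sets, 7.09% were higher and 6.88% lower, or 13.1% and 13.4% with the block. All 5 of 5 seed or embryo markers (PAP85, M17, M10, OLEO3 and AGL67) fell, and their summed signal, set mainly by PAP85 and M17, was 50671 to 68669.8 in the dark and 532 to 606 in red light. Of 5 mesophyll markers, LHCB4.1 and LHCB4.2 rose and 3 did not pass (with the block 4 rose). Their summed signal, to which LHCB4.3 adds little, was 19349 to 25806 in the dark and 41917 to 69748 in red light. PYK10, a beta-glucosidase abundant in roots and lower hypocotyls, was bright in all arrays, with 14456, 19889 and 21060.2 in the dark and 17375, 21039 and 21586 in red light, and its groups overlapped (log2 fold change 0.13 ± 0.17, adjusted p = 0.682). The root hair expansins gave little signal: EXPA18 had 47.9, 113 and 54.5 in the dark and 94.7, 161 and 105 in red light, and EXPA7 was below the signal limit. The guard cell lineage factors SPCH and FMA had log2 fold changes of 1.53 ± 0.74 and 0.92 ± 0.38 that did not pass without the block (adjusted p = 0.208 and 0.142), while SPCH passed with it and FMA did not (adjusted p = 0.031 and 0.0954), with a summed signal of 148 to 205 in the dark and 202 to 435 in red light. The vascular genes OPS and GUT2 did not pass (log2 fold changes 0.30 ± 0.36 and 0.10 ± 0.18, adjusted p = 0.646 and 0.772), and neither did the epidermal gene AT4G13840 without the block (log2 fold change 1.12 ± 0.41, adjusted p = 0.0965, with the block 0.0308). The meristem markers CLV3 and UFO were below the signal limit. Whether the tissue makeup moved with the light response was not tested beyond these values.

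The same light comparison in Ler puts these values beside the wild type. The fold changes of the 2 comparisons share no arrays, but 1 estimate of the spread per probe set, from all 12 arrays, serves both tests. The calls in the 2 genotypes are therefore not independent. Of the 1129 probe sets higher in atbzip16, 709 were also called higher in Ler, which is 62.8% of the former and 78.9% of the 899 (5.65% of those tested) of Ler. Of the 1095 lower, 599 were also called lower in Ler, 54.7% of the former and 65% of the 921 (5.78%) of Ler. The sign was the same in Ler for 2185 of the 2224 and opposite for 39, none of which was called in Ler. Across the 15922 probe sets, which are not independent, Pearson's r of the log2 fold changes was 0.81. LHCB4.2 rose by 2.98 ± 0.26 in atbzip16 and by 2.96 ± 0.26 in Ler, HPR by 1.77 ± 0.14 and 1.80 ± 0.14, and PSBY by 1.49 ± 0.15 and 1.40 ± 0.15.

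The difference between the responses was tested as an interaction. No probe set passed in limma's fit without the block (the lowest adjusted p was 0.178). Before adjustment, 567 of the 15922 were under 0.05, a smaller share than the 0.05 expected if no probe set differed. With the block, 54 (0.339%) passed, with a difference of atbzip16 minus Ler above 0 in 4 and below 0 in 50. With all replicate 1 arrays left out, 242 passed, 61 above and 181 below 0, and 52 of the 54 were among them. ATOEP16-2 had the smallest p. In Ler its signals were 749.7, 666 and 536 in the dark and 57.2, 80.2 and 63.7 in red light. It fell by 6.62 ± 0.34 in atbzip16 and fell by 3.28 ± 0.34 in Ler, a difference of -3.34 ± 0.48 (adjusted p = 0.178, with the block 0.00402). AT5G44310 had log2 fold changes of -5.79 ± 0.33 in atbzip16 and -3.28 ± 0.33 in Ler, and AT5G01300 -4.74 ± 0.31 and -2.41 ± 0.31 (adjusted p of the difference = 0.39 and 0.39, with the block 0.000501 and 0.000501). AT4G31830 had -6.90 ± 0.42 and -3.46 ± 0.42 (adjusted p of the difference = 0.346, with the block 0.0213). Red-light signals of AT4G31830 and ATOEP16-2 in atbzip16 were under 41.6, and with a pseudocount of 16 the differences were -2.57 and -2.76. Those of AT5G44310 were 52.6, 41.4 and 22.9, and its difference with the pseudocount was -2.24. AT5G42290 had 988, 643 and 647 in the dark and 47.3, 37.8 and 90.8 in red light in atbzip16 and 378, 237 and 214 in the dark and 174, 122 and 138 in red light in Ler, and fell by 3.77 ± 0.33 in atbzip16, beside a log2 fold change of -0.90 ± 0.33 in Ler (adjusted p of the difference = 0.298, with the block 0.00461). AT3G57020 fell by 2.50 ± 0.34 in atbzip16 and had -0.08 ± 0.34 in Ler (adjusted p of the difference = 0.45, with the block 0.000501). AT1G04560 and AT2G15010 had log2 fold changes of -5.48 ± 0.25 and -5.69 ± 0.25 in atbzip16 and of -3.65 ± 0.25 and -3.88 ± 0.25 in Ler (adjusted p of the difference = 0.39 and 0.403, with the block 0.0243 and 0.0157). AT1G06700 and AT5G55050 had opposite signs in the genotypes: AT1G06700 fell by 0.61 ± 0.16 in atbzip16 and was 0.45 ± 0.16 in Ler, and AT5G55050 was -0.46 ± 0.18 in atbzip16 and 0.77 ± 0.18 in Ler (adjusted p of the difference = 0.533 and 0.489, with the block 0.0387 and 0.0243). The fall of AT5G55050 in atbzip16 passed with the block and not without it (adjusted p = 0.0371 and 0.118). The call of AT1G06700 in atbzip16 ended after median centring and when dark replicate 1 or 2 or red-light replicate 3 was left out.

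Of the 11 seed maturation genes, the difference was below 0 in 9 and above 0 in 2, M17 and OLEO3. With the block 4 passed, all below 0: LEA18 (-1.71 ± 0.77, adjusted p = 0.000501), AtLEA4-1 (-1.41 ± 0.81, adjusted p = 0.00681), M10 (-3.59 ± 0.87, adjusted p = 0.0157) and LEA4-5 (-1.92 ± 0.51, adjusted p = 0.0498). The errors here are those of the fit without the block, in which none of the 11 passed. Red-light signals of M10 in atbzip16 were under 41.6, so the size of its difference rests on values near the floor. M17 and OLEO3 had differences of 1.16 ± 1.49 and 0.32 ± 0.38, which did not pass with the block (adjusted p = 0.84 and 0.766). With all replicate 1 arrays left out, 5 of the 11 passed below 0 and 1, M17, above 0 (2.96, adjusted p = 0.0295), while M10 did not pass (-3.61, adjusted p = 0.0821). The glutaredoxin GRXC1 had a difference of -1.07 ± 0.24, which passed with the block and not without it (adjusted p = 0.0216 and 0.652). TUB1 had -1.90 ± 0.35 in atbzip16 and -2.80 ± 0.35 in Ler, and this difference passed with the block (adjusted p of the difference = 0.0216, without the block 1). STZ fell by 2.52 ± 0.42 in atbzip16 and was -0.62 ± 0.42 in Ler, and the difference did not pass with or without the block (adjusted p = 0.339 and 1). HYH was -1.55 ± 0.87 in atbzip16 and 0.40 ± 0.87 in Ler (adjusted p of the difference = 1, with the block 0.641). FHL and GID1B, which fell in atbzip16 (-1.32 ± 0.21 and -1.11 ± 0.22), were -0.57 ± 0.21 and -0.23 ± 0.22 in Ler, where they did not pass; the difference did not pass either (adjusted p = 1 and 1, with the block 0.462 and 0.415).

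**Figure D5:**
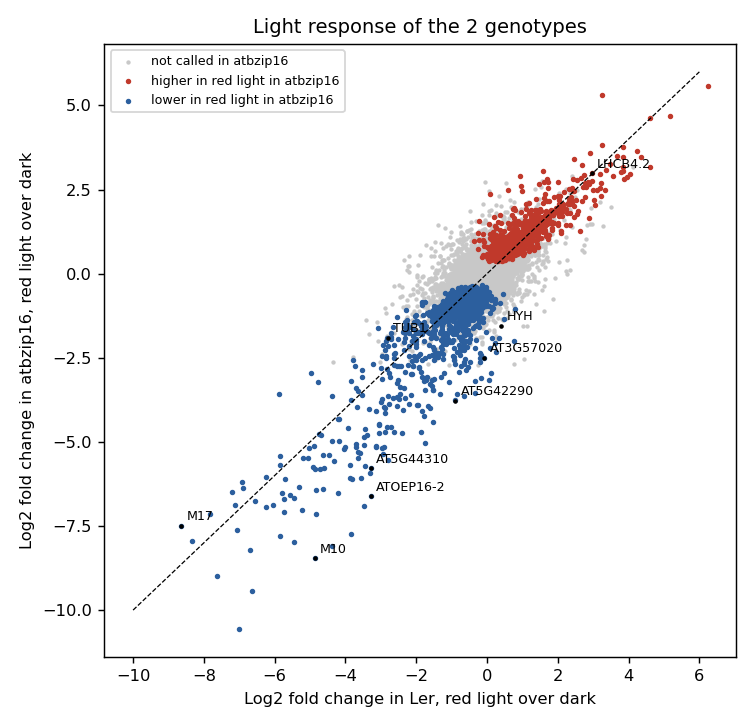
Log2 fold change of red light over dark in Ler (x axis) and atbzip16 (y axis) for 15922 probe sets, with those called higher in atbzip16 in red and those called lower in blue, and a dashed line of equal change. Most called points share their sign between genotypes (2185 of 2224), and of the named points M10 and ATOEP16-2 lie below the line and M17 and TUB1 above it.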

How the data were processed

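RNA from aerial parts of seedlings, labelled as total RNA though the protocol in the labels also covers polysome RNA, was hybridised to oligonucleotide arrays with 22810 probe sets. The deposited values are linear signal intensity per probe set. The authors computed them with MAS5, according to the submitters' processing notes, for which no settings are given in the sources used here. The mean of each array without its extremes was about the same, which shows a common scaling. The 64 control probe sets and the 30% of the other 22746 with the lowest geometric mean signal over all 12 arrays (under 41.6) were left out, and 15922 were tested. No pseudocount was added before log2.

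A linear model with 1 mean per group, over the 12 arrays, was fitted in R 4.3.3 with limma 3.58.1, using lmFit and contrasts.fit and then eBayes on a variance trend, for the light response in each genotype and their difference. The fit was tested on simulated data in which every array was drawn independently. That test therefore does not cover deviations shared by same-numbered arrays, which are given below. Adjustment over the 15922 followed Benjamini and Hochberg, and the errors are standard errors from this fit. Same-numbered arrays of different groups deviated together in all 18 pairs, with residual correlations above 0 (0.164 to 0.505), and the numbers, given by the titles, were taken to pair the samples. This rests mostly on replicate 1: among replicates 2 and 3, arrays of the same number correlated at 0.164 to 0.292 and arrays of different numbers at 0.105 to 0.248. Values with replicate number as a block are printed where a call changes or a count differs by more than 1.5 times. The block changes the error and not the fold change. Arrays have no depth in counts, and 3 arrays per group limit the precision.

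Probe sets were named through the platform's annotation and a gene table of assembly TAIR10.1. Of 13513 with 1 gene, 13436 were in the table, 503 had several genes, and 8730 are not named here. Of several probe sets for 1 gene, the brightest on average stood for the gene in list counts. The 43 gene lists and 7 lists of tissue markers were matched by symbol and synonym, and matches seen to share only letters with a list were removed after reading the names. Some such matches remained, among them PDF1A and PDF1B in stress and defence. Of the 43, 41 had a tested member. The members and lists were chosen with earlier results of these data known. Named genes are the 15 largest rises and falls and the 10 smallest p-values in each direction among called probe sets with 1 gene, up to 4 called members of each list by p-value or otherwise the 2 smallest, and the 10 smallest p-values of the genotype difference. Other members named beside them were chosen after their values were seen. Alternatives were other filters, a pseudocount, other scalings, the block, no variance trend, the 6 arrays alone and leaving out arrays.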

Additional observations from a re-analysis of the deposited data

How the results depend on the processing

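The 2224 calls of the light response in atbzip16 (1129 higher, 1095 lower) became 4221 (2091 and 2130) with the replicate block and 4252 (2306 and 1946) with the block and quantile normalization. Chosen after seeing the data, leaving out every replicate 1 array gave 4657 (2326 and 2331), and the 6 atbzip16 arrays alone with the block gave 3770 (1890 and 1880). Without each array of atbzip16 in turn, the calls ran from 1372 to 2116, the higher ones from 665 to 1074 and the lower ones from 707 to 1042. The lowest totals, 1372 and 1414, came without red-light replicates 2 and 3, and the lower calls also dropped to 727 and 724 without dark replicates 2 and 3. Each of these fits has fewer arrays. Median centring gave 2223 calls (1464 and 759), and the other alternatives stayed within 1.5 times of the 3 counts. For the genotype difference, the 0 calls became 54 with the replicate block, 68 with the block and quantile normalization, 242 without the replicate 1 arrays, 1 with a pseudocount of 16 and 0 to 2 without each array of the series in turn. Of the 121 called genes followed through these alternatives, 0 reversed their sign in any of them. Among the uncalled genes named, the sign turned without 1 of the 6 arrays for CHLI2 (-0.11 to 0.51), SBPASE (-0.10 to 0.81), EIN3 (-0.22 to 0.10), GID1A (-0.30 to 0.04), PYK10 (-0.04 to 0.23) and PORB (-0.69 to 0.04). It also turned without all replicate 1 arrays for IAA29 (0.06) and GID1A (0.03), after median centring for EIN3 (0.01), and under quantile normalization for PYK10 (-0.17, and -0.17 with the block); the cause was not tested. The block ended no call among the genes named, and 17 of them passed with it that did not pass without.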
